A study of Mus musculus with 27 samples.

Results

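The livers of mice given 30 µg/kg TCDD were compared with those of mice given 10 µg/kg, the top step of a dose series, to see what the highest dose added to the response already present at the next one. TCDD (2,3,7,8-tetrachlorodibenzo-p-dioxin) is a long-lived pollutant that activates the aryl hydrocarbon receptor (AhR). Both groups were ovariectomized female C57BL/6 mice with a labelled age of 120 days, gavaged with TCDD in sesame oil every 4 days for 92 days (the treatment text also has the word daily), and each held 3 livers. The 6 libraries were chosen by their dose labels from 27, which also hold sesame oil vehicle and 6 lower doses of TCDD. The labels call the 3 livers of a dose biological replicates and name no litter, cage or dosing day.

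Once TCDD binds the AhR in the cytoplasm, the receptor moves to the nucleus, pairs with ARNT and binds short DNA motifs with the core GCGTG beside its target genes. The best known targets are the Cyp1 monooxygenases, the quinone reductase Nqo1 and the feedback factors Ahrr and Tiparp. The transcription factor NRF2, encoded by the AhR target Nfe2l2, drives genes that make glutathione and reduce oxidized proteins, and repeated TCDD exposure is known in mice for fatty liver, inflammation, bile duct proliferation and fibrosis.

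Reads were counted per gene, and levels are given as CPM, the count of a gene divided by its library size after scaling for library composition. The library totals were 17869187, 22418418 and 14147986 counts at 30 µg/kg, against 25105746, 19999504 and 21020124 counts at 10 µg/kg. Mitochondrial genes took 5.90% to 6.04% of counts at 30 µg/kg, against 5.21% to 5.48% at 10 µg/kg. The 3 indices of the 30 µg/kg libraries are those of the vehicle libraries, and none is shared with 10 µg/kg, so index use and dose cannot be told apart in the comparison of the 2 doses. The second 30 µg/kg liver stood apart from the other two of its group. On the first principal component of the 6 livers, which held 74.4% of the variance of the 1000 most variable genes, the 30 µg/kg livers lay at 24.4, -3.4 and 29.1, against -23.7, -19.2 and -7.13 for the 10 µg/kg livers. The median over genes of the SD among 3 livers, on the scale log2(CPM + 1), was 0.201 at 30 µg/kg and 0.165 at 10 µg/kg.

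Raising the dose to 30 µg/kg was accompanied by higher levels of some AhR and NRF2 targets, of keratins and other epithelial genes, and by lower levels of many hepatocyte genes, among them cytochromes P450, amino acid enzymes and secreted plasma proteins. Of 15121 genes tested with edgeR's quasi-likelihood method, 484 were called at a Benjamini-Hochberg adjusted p below 0.05, which is 3.2% of the genes tested. The 208 genes called higher were 1.38% of all genes and had a median log2 fold change of 1.42, and 64 of them rose at least 4-fold. The 276 called lower were 1.83% and had a median of -0.955, and 18 fell at least 4-fold. Over all genes the median was 0.00548. At an unadjusted p below 0.05 there were 2866 genes.

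**Figure D1:**
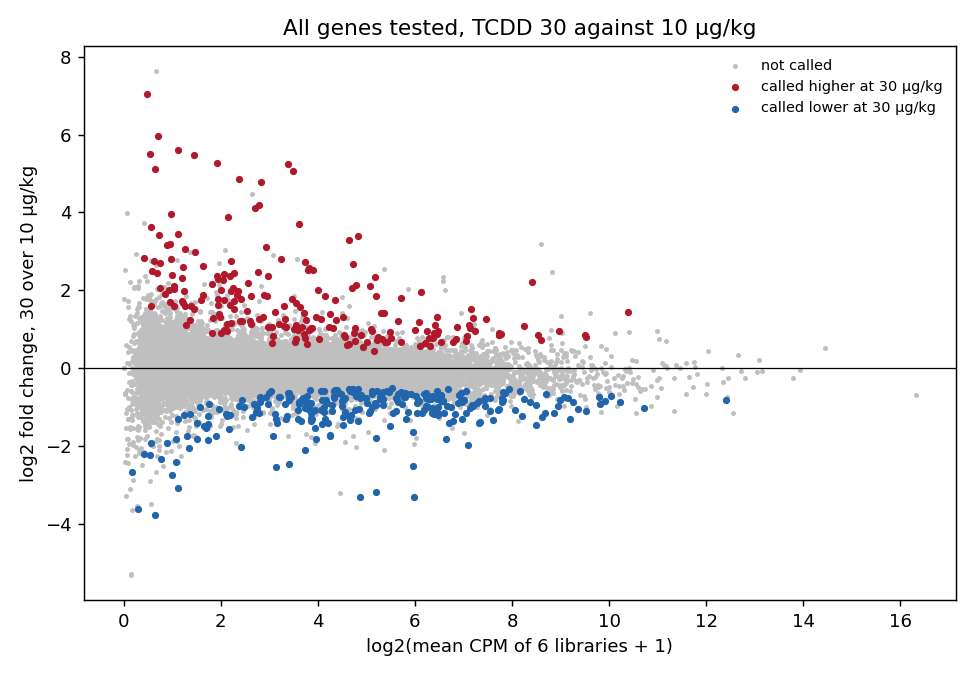
Log2 fold change (30 over 10 µg/kg) of each gene tested against its mean level over the 6 libraries on the scale log2(CPM + 1). The 208 genes called higher (red) reach larger fold changes than the 276 called lower (blue), and most lie at low to middle levels.

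The calls rested on which livers were in the fit. The second 30 µg/kg liver lay nearer to the mean of the 10 µg/kg livers than to that of the other two 30 µg/kg livers for 144 of the 208 genes called higher and for 166 of the 276 called lower. Without that liver 1741 genes were called, 479 of the 484 among them. Without the first or the third 30 µg/kg liver the number was 65 or 57, and without the first, the second or the third 10 µg/kg liver it was 46, 144 or 651. No gene of the 484 changed the sign of its fold change in any of these 6 fits. In a fit of the 6 libraries alone, with no help from the other 21 in estimating the spread, only 2 genes were called, Ecel1 and the unnamed gene model 5830411N06Rik. With the replicate number as a block, the same 6 libraries gave many more calls, given in the section on processing. Whether the numbers pair the livers is not known. The genes called in all 6 fits that leave out 1 liver numbered 35, with 27 higher and 8 lower, and the ones described below were Nqo1, Cyp1b1, Srxn1, Gsr, Pgd, Cbr3, Ptges, Krt19, Krt7, Dmbt1, Tgm3, Gabrp, Ereg, Meig1, Kcnj8, Arl6ip5 and Ecel1 among the higher and Fads1, Tm6sf2, Chn2, Vwce and Cyp2c38 among the lower. Of these, Dmbt1, Tgm3, Gabrp and Meig1 passed the low-count filter largely through the 30 µg/kg livers, so their calls carry less weight.

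Among the 15 largest rises, genes of mucosal and stratified epithelia led. Tgm3, a transglutaminase that crosslinks proteins in epidermis and hair, had 27.6, 5.72 and 26.5 CPM at 30 µg/kg, against 0.2, 0.417 and 1.18 CPM at 10 µg/kg (log2 fold change 5.07, SE 0.62, adjusted p = 0.000437). All 3 livers at 30 µg/kg were above all 3 at 10 µg/kg, and the second was the lowest of its group. Dmbt1, a secreted mucosal scavenger receptor, had 15.2, 10.6 and 29.3 CPM at 30 µg/kg, against 0.0668, 0.835 and 0.59 CPM at 10 µg/kg, and rose by 5.26 (SE 0.73, adjusted p = 0.00158). Lypd8, a protein of the colon surface that keeps bacteria off the epithelium, rested on few reads: 45, 19 and 140 counts at 30 µg/kg, against 0, 3 and 2 counts at 10 µg/kg. Its log2 fold change of 5.49 (SE 1.06, adjusted p = 0.0239) was called in 1 of the 6 fits that leave out a liver. Each of the 3 genes had under 0.1 CPM on average in vehicle livers and 0 to 2 counts in each 3 µg/kg liver. They passed the low-count filter largely through the 30 µg/kg livers, so a high level there was close to a condition of being tested. The same holds for Gabrp, Fgfbp1, Meig1 and Xpnpep2 below. Fgfbp1 had 295, 33 and 105 counts at 30 µg/kg, against 7, 5 and 20 counts at 10 µg/kg.

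The other leading rises had varied functions. Gabrp, a GABA-A receptor subunit found in epithelia, had 12.2, 0.96 and 11.2 CPM at 30 µg/kg, against 0.0668, 0.417 and 0.38 CPM at 10 µg/kg (log2 fold change 4.85, SE 0.80, adjusted p = 0.00206). Ereg, the EGF receptor ligand epiregulin, had 12.2, 1.04 and 18.1 CPM at 30 µg/kg, against 0.434, 0.649 and 0.717 CPM at 10 µg/kg (4.12, SE 0.66, adjusted p = 0.00158). In both genes the second 30 µg/kg liver was just above the highest 10 µg/kg liver and the other two were more than 10 CPM higher. Ptges, the synthase of prostaglandin E2, rose in all 3 livers, with 14.2, 8.48 and 21.4 CPM at 30 µg/kg, against 1, 2.36 and 2.99 CPM at 10 µg/kg (2.80, SE 0.39, adjusted p = 0.000341). Cbr3, a carbonyl reductase, had 60, 25.2 and 64.9 CPM at 30 µg/kg, against 1.47, 4.87 and 7.97 CPM at 10 µg/kg (3.40, SE 0.47, adjusted p = 0.000362). The fibroblast growth factor carrier Fgfbp1, the acute phase protein Orm3, the muscle M-band protein Myom1, Meig1, which is known for spermatogenesis, and the aminopeptidase Xpnpep2 had log2 fold changes of 2.98 to 3.87.

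Kcnj8, Ecel1 and Arl6ip5 were smaller rises with some of the smallest adjusted p-values. Ecel1, a neuronal endopeptidase, had 36.8, 44.4 and 48.5 CPM at 30 µg/kg, against 7.28, 9.78 and 12.5 CPM at 10 µg/kg (log2 fold change 2.14, SE 0.26, adjusted p = 0.000341). Here the second 30 µg/kg liver did not stand apart. Kcnj8, a pore subunit of ATP-sensitive potassium channels, had 30, 13.1 and 29.3 CPM at 30 µg/kg, against 5.44, 4.91 and 7.59 CPM at 10 µg/kg (2.01, SE 0.27, adjusted p = 0.000341). Arl6ip5, a membrane protein that regulates glutamate transport, had 117, 89.5 and 119 CPM at 30 µg/kg, against 55.9, 59.2 and 58.6 CPM at 10 µg/kg (0.91, SE 0.12, adjusted p = 0.000239).

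**Figure D2:**
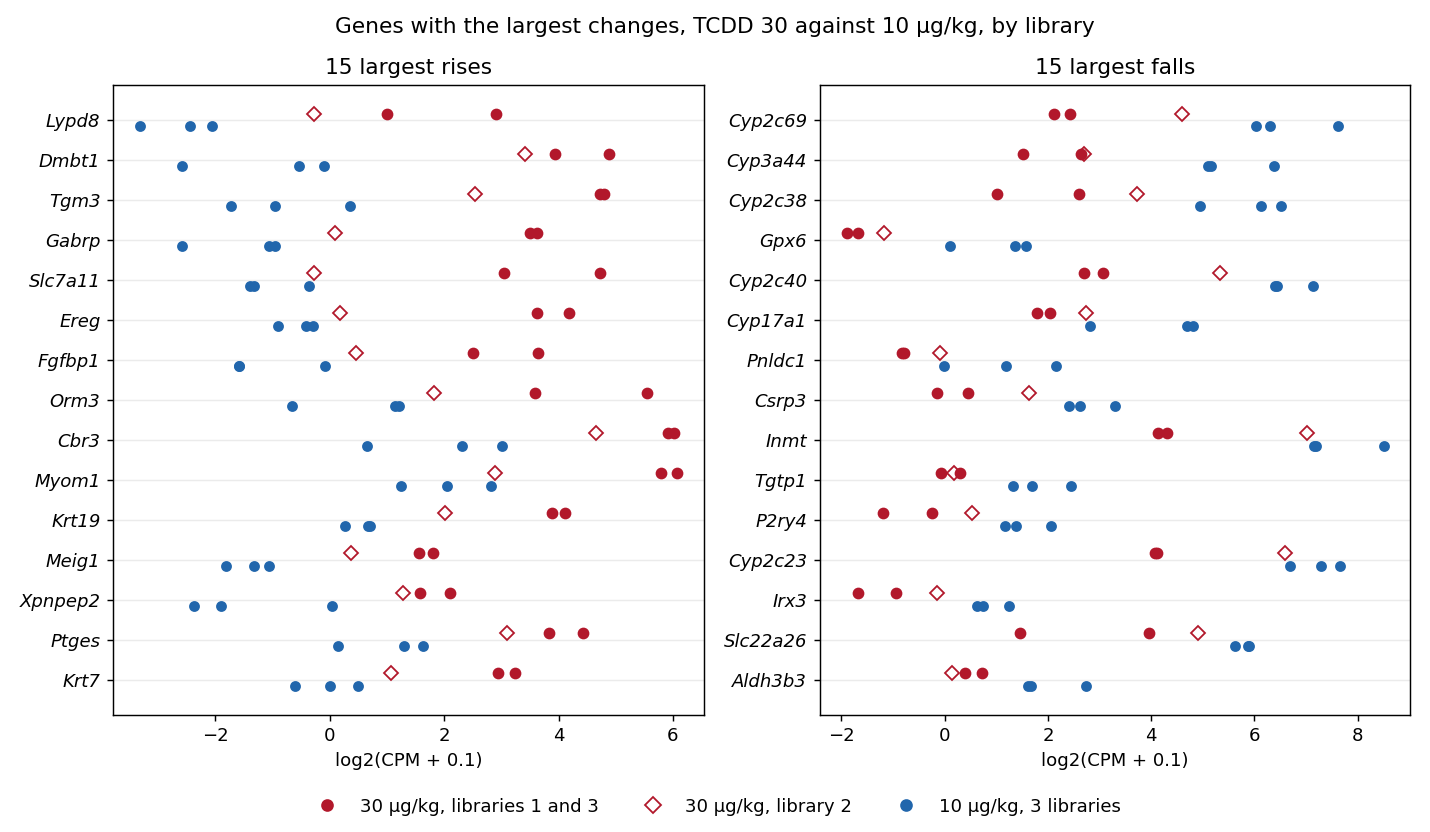
Level of the 15 largest rises (left panel) and 15 largest falls (right panel) in each library, on the scale log2(CPM + 0.1); red circles are the first and the third 30 µg/kg livers, open red diamonds the second, and blue circles the 10 µg/kg livers. The groups do not overlap in any of these genes, which the choice of genes required, and in most of them the diamond lies between the other red points and the blue ones.

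Cytochromes P450 and other hepatocyte enzymes led the falls. Cyp2c38, a P450 of the Cyp2c cluster, had 1.93, 13.2 and 5.95 CPM at 30 µg/kg, against 91.1, 69.5 and 30.9 CPM at 10 µg/kg, and fell by 3.17 on the log2 scale (SE 0.48, adjusted p = 0.00158). Cyp2c69 had 4.24, 24.2 and 5.32 CPM at 30 µg/kg, against 197, 65.3 and 78.4 CPM at 10 µg/kg (-3.32, SE 0.73, adjusted p = 0.0174). The groups were apart in both, and the second 30 µg/kg liver was the highest of its group. Cyp3a44, Cyp2c40, Cyp17a1, the steroid 17-alpha-hydroxylase, and Cyp2c23 fell by 1.81 to 3.32. The Cyp2c and Cyp3a clusters hold near-identical genes and reads that aligned to several places were not counted, so their single values are uncertain.

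The other large falls covered several functions. Inmt, an indolethylamine methyltransferase, had 19.6, 129 and 17.5 CPM at 30 µg/kg, against 143, 363 and 146 CPM at 10 µg/kg (-1.96, SE 0.54, adjusted p = 0.0486), so the second 30 µg/kg liver nearly reached the 10 µg/kg livers. Tgtp1, an interferon-induced GTPase, had 1.13, 1.04 and 0.85 CPM at 30 µg/kg, against 3.14, 2.41 and 5.36 CPM at 10 µg/kg (-1.84, SE 0.48, adjusted p = 0.0358). The rest of the 15 were the glutathione peroxidase Gpx6, the exonuclease Pnldc1, the muscle LIM protein Csrp3, the nucleotide receptor P2ry4, the transcription factor Irx3, the organic anion transporter Slc22a26 and the aldehyde dehydrogenase Aldh3b3, with log2 fold changes of -3.07 to -1.76.

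The AhR target battery held members that rose over the top step and members that did not pass the test. Of 13 members, 5 rose (Nqo1, Cyp1b1, Nfe2l2, Tiparp and Ugdh) and 0 fell, and the battery's median log2 fold change was 0.73. Leaving out single livers gave 2 to 5 rising members. Here and in the lists below, the counts stand beside 1.38% of all genes called higher and 1.83% called lower. Cyp1a1, the classic AhR readout, had 6935, 7940 and 6718 CPM at 30 µg/kg, against 4939, 6378 and 5882 CPM at 10 µg/kg (log2 fold change 0.33, SE 0.22, adjusted p = 0.421). Cyp1a2, which metabolizes caffeine and estrogens, had 28390, 27060 and 23740 CPM at 30 µg/kg, against 14420, 20730 and 20000 CPM at 10 µg/kg (0.52, SE 0.22, adjusted p = 0.187). Ahrr, the repressor that competes with AhR for ARNT, had 72.3, 81 and 80.1 CPM at 30 µg/kg, against 67.9, 54.7 and 68.5 CPM at 10 µg/kg (0.29, SE 0.19, adjusted p = 0.431). In these 3 genes every 30 µg/kg liver was above every 10 µg/kg liver, as in 22% of all genes in either direction, but the differences did not pass the test.

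Cyp1b1, an AhR target that also oxidizes estrogens, went on rising, with 2066, 1282 and 2542 CPM at 30 µg/kg, against 581, 727 and 850 CPM at 10 µg/kg (log2 fold change 1.45, SE 0.25, adjusted p = 0.00205). Nqo1, a quinone reductase under both AhR and NRF2, had 211, 116 and 242 CPM at 30 µg/kg, against 71, 92 and 98.7 CPM at 10 µg/kg (1.12, SE 0.18, adjusted p = 0.00158). Both genes were separated between the doses, with the second 30 µg/kg liver the lowest of its group. Tiparp, the mono-ADP-ribosyltransferase that limits AhR, had 112, 77.1 and 157 CPM at 30 µg/kg, against 44.9, 50.7 and 65.7 CPM at 10 µg/kg (1.10, SE 0.26, adjusted p = 0.0203). Ugdh, which makes UDP-glucuronic acid, rose by 0.80 (SE 0.20, adjusted p = 0.0265) and Nfe2l2, which encodes NRF2, by 0.86 (SE 0.16, adjusted p = 0.00406). The members not called also include Gsta1 (log2 fold change 2.12, SE 0.73, adjusted p = 0.117), Aldh3a1, Xdh (-0.31, SE 0.19, adjusted p = 0.382) and the Ugt1a6 pair, which shares exons with the other Ugt1a genes. Ahr itself had 58, 43.3 and 59.2 CPM at 30 µg/kg, against 48.3, 28.1 and 45.2 CPM at 10 µg/kg (adjusted p = 0.267), and its partner Arnt 30.5, 33.4 and 42 CPM, against 35.3, 39.1 and 37.2 CPM (adjusted p = 0.788).

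Some of the NRF2 and glutathione genes rose and none fell. Of 20 members, 7 rose (Srxn1, Gsr, Txnrd1, Slc7a11, Abcc4, Cbr1 and Gclc) and 0 fell, and the median log2 fold change was 0.85. Leaving out single livers gave between 2 rising members, without the first 10 µg/kg liver, and 12, without the second 30 µg/kg liver. Srxn1, sulfiredoxin, which restores oxidized peroxiredoxins, had 659, 189 and 820 CPM at 30 µg/kg, against 112, 94.2 and 156 CPM at 10 µg/kg (log2 fold change 2.21, SE 0.30, adjusted p = 0.000341). Slc7a11, the cystine importer that feeds glutathione synthesis, had 8.14, 0.73 and 26.2 CPM at 30 µg/kg, against 0.301, 0.278 and 0.675 CPM at 10 µg/kg (4.79, SE 0.90, adjusted p = 0.00868). The second 30 µg/kg liver was close to the 10 µg/kg livers in both genes, though above them. Slc7a11 had 9, 6 and 16 counts at 10 µg/kg, so it passed the low-count filter largely through the 30 µg/kg livers.

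Gsr, glutathione reductase, had 248, 117 and 257 CPM at 30 µg/kg, against 65.2, 86.8 and 102 CPM at 10 µg/kg (1.29, SE 0.22, adjusted p = 0.00191). Txnrd1, thioredoxin reductase, had 272, 210 and 364 CPM at 30 µg/kg, against 143, 144 and 172 CPM at 10 µg/kg (0.88, SE 0.16, adjusted p = 0.00473). Pgd, the NADPH-forming enzyme of the pentose phosphate pathway, had 240, 116 and 273 CPM at 30 µg/kg, against 68.2, 72 and 81 CPM at 10 µg/kg (1.51, SE 0.24, adjusted p = 0.00158). In these 3 genes the groups did not overlap. Of 12 pentose phosphate and NADPH genes, Pgd rose and the transhydrogenase Nnt fell, by 0.67 (SE 0.15, adjusted p = 0.0141), with 47% of its exonic bases in another gene of the same strand. In the NRF2 list, catalase (Cat) differed by 0.08 (SE 0.19, adjusted p = 0.845) and the ferritin heavy chain Fth1 by 0.75 (SE 0.29, adjusted p = 0.149).

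To show what lies around the start of these genes, 3 promoter windows are printed, from 250 bases before to 50 after the start of the gene: that of Cyp1a1 as the classic AhR target, of Tgm3 as a leading rise, and of Srxn1 as a leading NRF2 target. They are RefSeq sequences of build GRCm38.p6, at chr9:57697363-57697662, chr2:130012090-130012389 and chr2:152105274-152105573, all on the plus strand. Capitals mark matches on either strand to GCGTG, the AhR core motif, and to TGACNNNGC, the core of the antioxidant response element that NRF2 binds.
Cyp1a1: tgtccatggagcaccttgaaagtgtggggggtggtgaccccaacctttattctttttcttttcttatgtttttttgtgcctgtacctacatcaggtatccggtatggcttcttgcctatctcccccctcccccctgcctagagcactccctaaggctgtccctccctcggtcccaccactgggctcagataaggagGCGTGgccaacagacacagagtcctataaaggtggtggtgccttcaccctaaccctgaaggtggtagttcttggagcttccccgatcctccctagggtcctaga
Tgm3: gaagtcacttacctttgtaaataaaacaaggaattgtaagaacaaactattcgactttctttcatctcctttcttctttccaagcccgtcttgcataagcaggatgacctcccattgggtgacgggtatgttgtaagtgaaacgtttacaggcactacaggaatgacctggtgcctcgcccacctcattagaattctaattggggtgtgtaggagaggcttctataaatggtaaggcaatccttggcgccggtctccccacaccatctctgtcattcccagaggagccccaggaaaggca
Srxn1: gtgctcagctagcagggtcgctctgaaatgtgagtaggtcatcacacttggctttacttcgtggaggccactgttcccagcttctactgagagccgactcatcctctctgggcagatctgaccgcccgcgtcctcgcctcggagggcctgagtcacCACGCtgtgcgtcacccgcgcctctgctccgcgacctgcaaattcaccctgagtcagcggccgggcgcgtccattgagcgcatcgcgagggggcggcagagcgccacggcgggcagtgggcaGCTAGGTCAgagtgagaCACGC
The Cyp1a1 window holds 1 GCGTG, the Srxn1 window 2 GCGTG and 1 TGACNNNGC, and the Tgm3 window neither. The window of Nqo1, a target of both AhR and NRF2, is not printed and holds neither motif, and no Lypd8 window holds one. A window with GCGTG was found for 41.8% of the genes called higher and 35.7% of those called lower with an entry, against 53.5% of all genes tested. For TGACNNNGC the shares were 17.1% and 13.8%, against 16.8%. These are shares of genes with any such window. Counted per promoter, GCGTG was in 40.7% of those of genes called higher, 31.1% of those called lower and 47.8% of those of all genes tested. Over all promoters of the genome set the share was 32.4%. For TGACNNNGC the shares per promoter were 14.1%, 11.7%, 14.3% and 12.4%, in the same order. Dmbt1 and Krt19 have no entry.

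Cytochromes P450 of the Cyp2, Cyp3a and Cyp4 families, which oxidize drugs, steroids and fatty acids, were lower in nearly all of the members that were called. Of 57 members, 12 fell and 1, Cyp3a59, rose, and the median log2 fold change was -0.61. The number that fell was 24 without the second 30 µg/kg liver and 1 to 12 without any other single liver. Cyp4f15, a fatty acid hydroxylase, had 41.2, 84.4 and 37.4 CPM at 30 µg/kg, against 120, 126 and 91.2 CPM at 10 µg/kg (-1.05, SE 0.23, adjusted p = 0.0124). Cyp2d26 had 124, 395 and 177 CPM at 30 µg/kg, against 671, 641 and 348 CPM at 10 µg/kg (-1.25, SE 0.30, adjusted p = 0.0206), with the second 30 µg/kg liver inside the range of 10 µg/kg. Cyp2e1, the ethanol-oxidizing P450, had (log2 fold change -0.74, SE 0.26, adjusted p = 0.117), and Cyp3a11, a main drug-oxidizing P450, one of 0.45 (SE 0.24, adjusted p = 0.312).

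Conjugation genes moved both ways, with 3 of 53 called higher and 7 lower. Ugt1a7c, a glucuronosyltransferase, had 17.6, 11.2 and 49.9 CPM at 30 µg/kg, against 5.48, 5.75 and 10.4 CPM at 10 µg/kg (1.86, SE 0.36, adjusted p = 0.00611). Ugt1a1, the bilirubin-conjugating member of the same locus, had 213, 307 and 242 CPM at 30 µg/kg, against 652, 532 and 498 CPM at 10 µg/kg (-1.14, SE 0.23, adjusted p = 0.00717). These 2 genes share 55% and 59% of their exonic bases with genes of the same strand, so how reads were divided between them is uncertain. The glutathione transferase Gstm7 and the glucuronosyltransferase Ugt3a1 fell by 0.94 and 1.45. The number that fell ranged from 0 to 15, and the number that rose from 0 to 5, when single livers were left out.

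Bile acid and lipid genes gave few calls, nearly all lower, beside 1.83% of all genes called lower and 1.38% called higher. Slc10a1 (NTCP), the sodium-dependent importer of bile acids on the sinusoidal side, had 192, 328 and 220 CPM at 30 µg/kg, against 528, 448 and 447 CPM at 10 µg/kg (-0.94, SE 0.21, adjusted p = 0.0137). Slco2b1, an organic anion importer, fell by 0.96 (SE 0.23, adjusted p = 0.02). Abcc4, an exporter of the sinusoidal membrane, rose, with 129, 41 and 158 CPM at 30 µg/kg, against 17.1, 29.6 and 38.2 CPM at 10 µg/kg (1.95, SE 0.41, adjusted p = 0.0122). The canalicular exporter Abcc2 differed by 0.09 (SE 0.17, adjusted p = 0.801). Without the second 30 µg/kg liver 4 of the 18 transporters fell, and without any other 0 to 2. Among 18 genes of bile acid synthesis, only Slc27a5, the bile acid-CoA ligase, was called (-0.77, SE 0.20, adjusted p = 0.0369).

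The desaturases Fads1 and Fads2, which make long polyunsaturated fatty acids, both fell. Fads1 had 82.7, 109 and 69.2 CPM at 30 µg/kg, against 271, 214 and 207 CPM at 10 µg/kg, and fell by 1.41 on the log2 scale (SE 0.17, adjusted p = 8.33e-05), the smallest adjusted p of a gene called lower. Fads2 had 87.7, 135 and 46 CPM at 30 µg/kg, against 301, 162 and 241 CPM at 10 µg/kg (-1.39, SE 0.30, adjusted p = 0.0126). The groups were apart in both genes. They were the only calls among 24 genes of fatty acid and triglyceride synthesis, where Scd1, the main delta-9 desaturase, overlapped between the doses (-0.08, SE 0.41, adjusted p = 0.935). Tm6sf2, which helps to load lipid onto lipoproteins, had 7.64, 14.1 and 6.86 CPM at 30 µg/kg, against 27.5, 25.6 and 23.3 CPM at 10 µg/kg (-1.41, SE 0.21, adjusted p = 0.000624). Cpt1a, which carries fatty acids into mitochondria for oxidation, was the only call among 26 oxidation and ketogenesis genes (-0.68, SE 0.18, adjusted p = 0.0431). That is 3.85% of the list, near the 3.2% of all genes called. None of 22 cholesterol synthesis genes was called, against 5 called lower without the second 30 µg/kg liver, and their median was -0.46. Chn2, a Rac GTPase-activating protein, and Vwce, a secreted protein with von Willebrand factor domains, also fell, by 1.00 (SE 0.16, adjusted p = 0.00158) and 1.31 (SE 0.22, adjusted p = 0.00158).

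In the glycolysis, glycogen, one-carbon and amino acid lists every call was lower. Over all genes, 276 (1.83%) were called lower and 208 (1.38%) higher. Slc2a2 (GLUT2), the hepatocyte glucose transporter, had 53.4, 95 and 33.3 CPM at 30 µg/kg, against 172, 169 and 128 CPM at 10 µg/kg (-1.37, SE 0.29, adjusted p = 0.0121). Gys2, liver glycogen synthase, had 52.8, 85.6 and 30.9 CPM at 30 µg/kg, against 161, 161 and 128 CPM at 10 µg/kg (-1.41, SE 0.27, adjusted p = 0.00655). The groups did not overlap in these 2 genes. Liver pyruvate kinase Pklr fell by 1.09 (SE 0.30, adjusted p = 0.0431), with 22% of its exonic bases in a gene of the other strand. Of 25 glycolysis genes 2 fell and of 15 gluconeogenesis and glycogen genes 2, and without the second 30 µg/kg liver the numbers were 5 and 4.

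Of 26 one-carbon, methionine and serine genes, 5 fell and 0 rose, with a median of -0.38. Mat1a, which makes S-adenosylmethionine in hepatocytes, had 774, 1437 and 1133 CPM at 30 µg/kg, against 2406, 2533 and 1867 CPM at 10 µg/kg (-1.02, SE 0.22, adjusted p = 0.0124). Sardh, Gamt and Shmt1, enzymes of sarcosine, creatine and serine metabolism, fell by 1.14, 1.16 and 1.00. Amino acid breakdown gave 5 falls and 0 rises of 29 members, with a median of -0.67. They include the histidine enzyme Uroc1, with 114, 281 and 121 CPM at 30 µg/kg, against 345, 451 and 292 CPM at 10 µg/kg (-1.08, SE 0.26, adjusted p = 0.0251), the hydroxyproline dehydrogenase Prodh2 (-1.21) and the aspartate aminotransferase Got1 (-1.30). Without the second 30 µg/kg liver 10 and 21 members of these 2 lists fell, and without the first 30 µg/kg liver, the third one or the first or second 10 µg/kg liver 0 did.

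**Figure D3:**
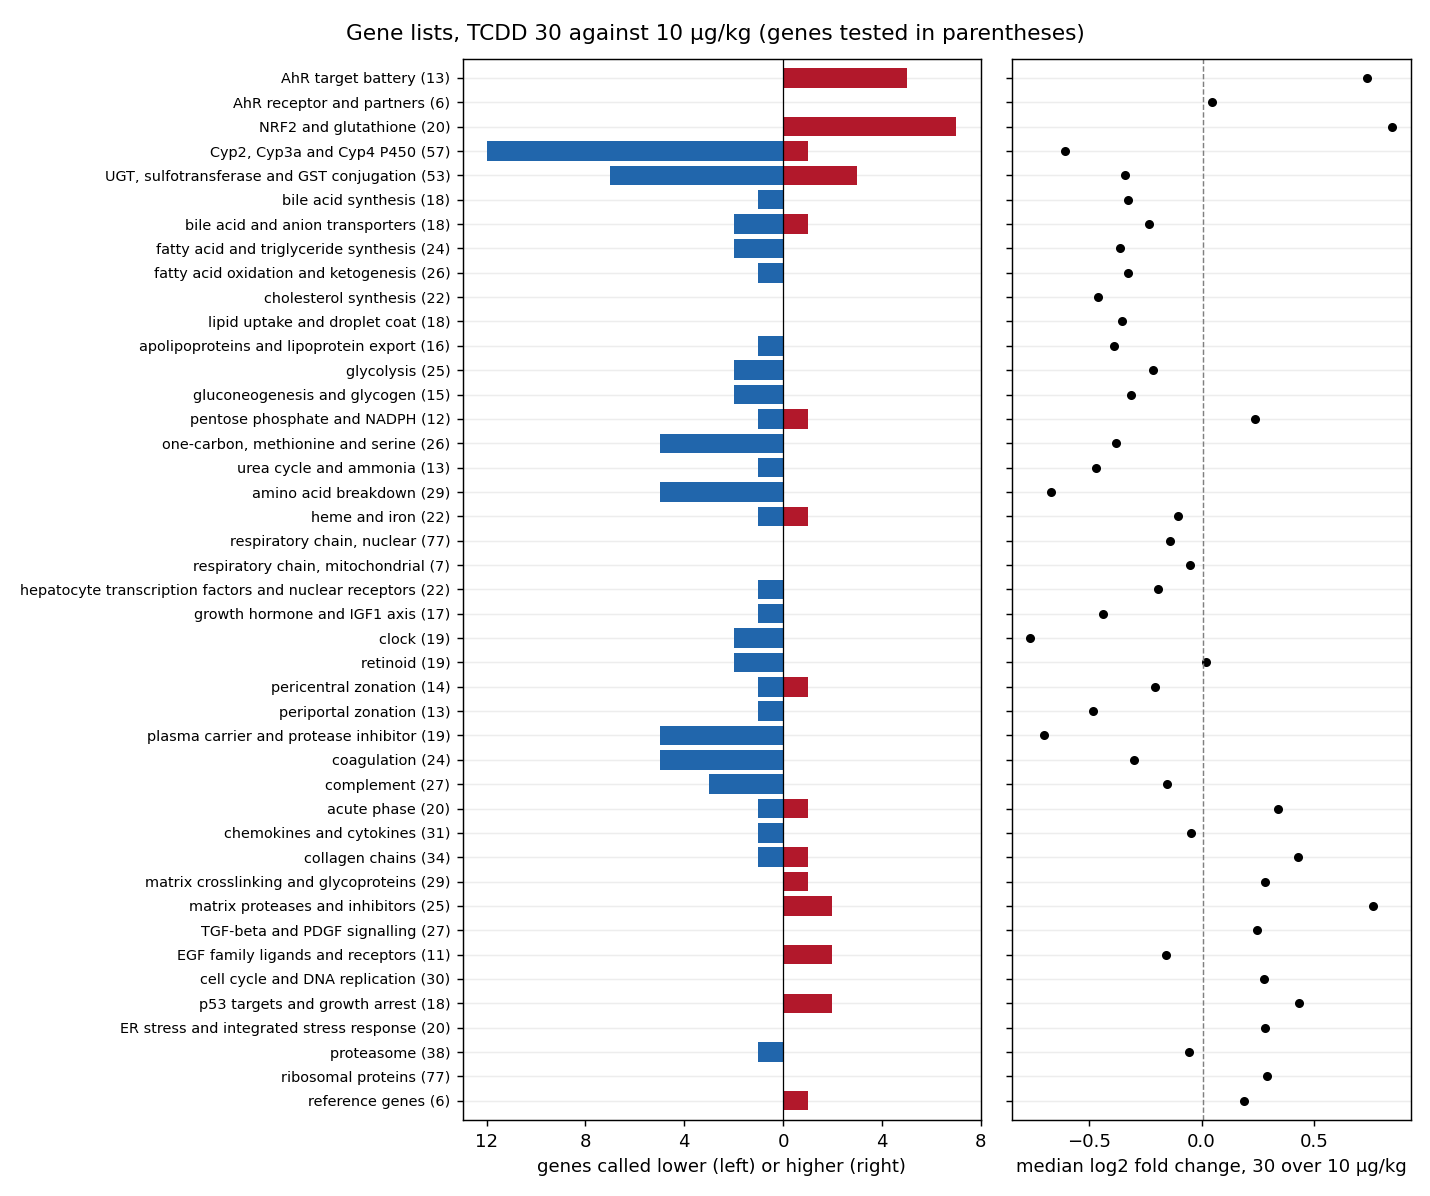
Number of genes called lower (blue, left) and higher (red, right) at 30 µg/kg in each of 43 gene lists, and the median log2 fold change of each list, with the median of all genes tested as a dashed line. The cytochromes P450 have the most genes called lower, 12 of 57, and the NRF2 and glutathione list the most called higher, 7 of 20. Over all genes tested, 1.83% were called lower and 1.38% higher.

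Among secreted plasma proteins the calls were lower too, apart from one of the acute phase, beside 1.83% of all genes called lower. Of 19 plasma carriers and protease inhibitors, 5 fell, and the median was -0.70. Ahsg (fetuin-A) had 3382, 5055 and 3423 CPM at 30 µg/kg, against 8120, 6398 and 6481 CPM at 10 µg/kg (-0.82, SE 0.20, adjusted p = 0.0247), and Serpinf2, the plasmin inhibitor, fell by 0.81 (SE 0.19, adjusted p = 0.0217). Albumin (Alb) had 53270, 83450 and 50690 CPM at 30 µg/kg, against 84500, 111700 and 108100 CPM at 10 µg/kg, without passing the test (-0.70, SE 0.28, adjusted p = 0.175). Of 24 coagulation genes, 5 fell, among them the vitamin K-dependent Proz, with 109, 186 and 115 CPM at 30 µg/kg, against 271, 212 and 220 CPM at 10 µg/kg (-0.78, SE 0.17, adjusted p = 0.0151). Of 27 complement genes 3 fell, the protease Masp2, whose exons overlap a gene of the other strand over 55% of their bases, C1ra and C1s1. Without the second 30 µg/kg liver the 3 lists had 12, 8 and 6 falls, and leaving out any other single liver gave at most 7, 3 and 3. The acute phase list gave 1 rise, Orm3, and 1 fall, Serpina3m, which had 27.4, 41 and 61.7 CPM at 30 µg/kg, against 112, 110 and 67.5 CPM at 10 µg/kg (-1.15, SE 0.25, adjusted p = 0.0106). Leaving out single livers gave this list 0 or 1 rise and 0 or 1 fall. Orm3 (adjusted p = 0.0478 by edgeR) was called in 1 of these 6 fits. It had 285, 90 and 876 counts at 30 µg/kg and 16, 48 and 50 counts at 10 µg/kg. Vehicle livers had 146, 89 and 169 counts of Orm3, so its level at 10 µg/kg was not above theirs.

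Iron and hormone genes added single calls. Hamp, the iron hormone hepcidin, had 180, 255 and 145 CPM at 30 µg/kg, against 520, 615 and 456 CPM at 10 µg/kg (-1.46, SE 0.34, adjusted p = 0.0206). Tfrc, the transferrin receptor, had 54.3, 44.5 and 76.3 CPM at 30 µg/kg, against 12.9, 25.4 and 27.6 CPM at 10 µg/kg (1.41, SE 0.33, adjusted p = 0.022). The doses were apart in both genes, in opposite directions. Prlr, the prolactin receptor, fell by 1.04 (SE 0.22, adjusted p = 0.0106). Nr1i3 (CAR), a nuclear receptor for foreign compounds, fell by 0.96 (SE 0.27, adjusted p = 0.0486) with 75% of its exonic bases in a gene of the other strand, while Hnf4a, the main hepatocyte transcription factor, differed by 0.01 (SE 0.18, adjusted p = 0.995). Of 19 clock genes, Hlf and Bhlhe40 fell, and the median of the list was -0.76. The number that fell was 9 without the second 30 µg/kg liver and 0 to 2 without any other single liver.

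Matrix and growth factor genes rose in a few members, beside 1.38% of all genes called higher. Mmp7, a metalloproteinase of epithelia, had 28.4, 6.45 and 32.2 CPM at 30 µg/kg, against 2.54, 3.89 and 4.81 CPM at 10 µg/kg (2.58, SE 0.49, adjusted p = 0.00825), with 12% of its exonic bases in a gene of the other strand. Mmp13, a collagenase, had 28.4, 8.68 and 13.7 CPM at 30 µg/kg, against 3.71, 3.66 and 9.87 CPM at 10 µg/kg (1.56, SE 0.42, adjusted p = 0.0415), and its groups overlapped. They were the 2 calls among 25 matrix proteases and inhibitors, whose median was 0.76, and leaving out single livers gave 0 to 6, the most without the second 30 µg/kg liver. Lox, which crosslinks collagen, had 7.3, 1.8 and 5.58 CPM at 30 µg/kg, against 0.835, 1.25 and 2.28 CPM at 10 µg/kg (1.75, SE 0.45, adjusted p = 0.0312). Lox was the only call among 29 matrix crosslinking and glycoprotein genes, or 3.45%, near the 3.2% of all genes called. Of 34 collagen chains, Col9a2 rose and Col4a3 fell, or 5.88% called. The fibrillar chain Col1a1 had 150, 54.8 and 62.6 CPM at 30 µg/kg, against 41.1, 29.6 and 82.1 CPM at 10 µg/kg (0.81, SE 0.45, adjusted p = 0.338), so the doses overlapped. Nrg1, an EGF family ligand like Ereg, had 18.3, 7.87 and 22.9 CPM at 30 µg/kg, against 3.67, 3.89 and 7.67 CPM at 10 µg/kg (1.69, SE 0.33, adjusted p = 0.00699). Of 18 p53 targets, the p53 ligase Mdm2 and the death receptor Tnfrsf10b rose, by 0.74 and 1.52, against 4 without the second 30 µg/kg liver and 0 or 1 without any other. No TGF-beta and PDGF gene of 27, no cell cycle gene of 30 and no ER stress gene of 20 was called. When single livers were left out, up to 3 TGF-beta and PDGF genes were called higher and up to 1 ER stress gene lower, and no cell cycle gene was called.

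Markers of cell types were read beside these changes. In whole liver, fewer cells of a type and less RNA per cell cannot be told apart. Of 11 cholangiocyte and ductular markers, 4 rose (Krt19, Krt7, Epcam and Cldn7) and 0 fell, and the median was 1.38. Krt19, a keratin of bile duct cells, had 14.7, 3.96 and 17.1 CPM at 30 µg/kg, against 1.1, 1.48 and 1.52 CPM at 10 µg/kg (3.12, SE 0.44, adjusted p = 0.000341). Krt7, its duct partner, had 7.59, 2 and 9.3 CPM at 30 µg/kg, against 0.902, 0.556 and 1.31 CPM at 10 µg/kg (2.75, SE 0.47, adjusted p = 0.00231). The adhesion protein Epcam had 15.7, 3.23 and 15.3 CPM at 30 µg/kg, against 1.3, 1.72 and 3.63 CPM at 10 µg/kg (2.37, SE 0.53, adjusted p = 0.0164), so only the second 30 µg/kg liver fell within the range of 10 µg/kg. Sox9, a transcription factor of the same cells, was not called (0.61, adjusted p = 0.414). The summed level of the list was 413, 163 and 331 CPM at 30 µg/kg, against 101, 111 and 226 CPM at 10 µg/kg, so the sums overlapped. Krt19, Krt7 and Epcam made up a small part of each sum. Leaving out single livers gave 2 to 6 rising members.

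Of 16 hepatocyte markers, 1 fell, Serpina1c, and 0 rose, and the median was -0.48. Without the second 30 µg/kg liver 7 fell, and without any other single liver 0 or 1 did. Their summed level was 69670 to 112100 CPM at 30 µg/kg, against 114700 to 142900 CPM at 10 µg/kg, so each 30 µg/kg liver was below each 10 µg/kg liver. Albumin, which was not called, made up most of the sum in each liver, so the sum says little of the other markers. The part of this lower sum in the falls of single hepatocyte genes was not tested. The log2 fold changes of these markers ran between those of Apoa1 (-1.10, SE 0.34, adjusted p = 0.0752) and Cyp3a11 (0.45).

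Immune, stellate and endothelial markers gave 1 call in all, the stellate and matrix gene Lox. Neutrophil markers had a median of 1.44, with 0 of 11 called. S100a8, a neutrophil alarmin, had 18.5, 17.3 and 33.9 CPM at 30 µg/kg, against 3.14, 7.79 and 14.7 CPM at 10 µg/kg (1.45, SE 0.92, adjusted p = 0.411). The summed level of the neutrophil list was 66.6 to 166 CPM at 30 µg/kg, against 20.7 to 63.3 CPM at 10 µg/kg, apart but with a wide spread within each dose. Recruited macrophage markers had a median of 0.81, with 0 of 14 called and 3 below 0, and their summed level overlapped, with 1258 to 1589 CPM at 30 µg/kg, against 1331 to 1588 CPM at 10 µg/kg. The one with the largest log2 fold change, Gpnmb, a lysosomal glycoprotein, had 251, 61.3 and 153 CPM at 30 µg/kg, against 19.7, 20.6 and 58.4 CPM at 10 µg/kg (2.24, SE 0.63, adjusted p = 0.058). The lipid-sensing receptor Trem2 had (log2 fold change 1.44, SE 0.41, adjusted p = 0.0522). Kupffer cell markers had a median of -0.69 with 0 of 9 called, and Clec4f, their lectin, one of -0.90 (SE 0.29, adjusted p = 0.0929). Endothelial markers had a median of -0.49 with 0 of 13 called. Without the second 30 µg/kg liver 4 macrophage markers rose and 3 Kupffer cell and 4 endothelial markers fell.

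**Figure D4:**
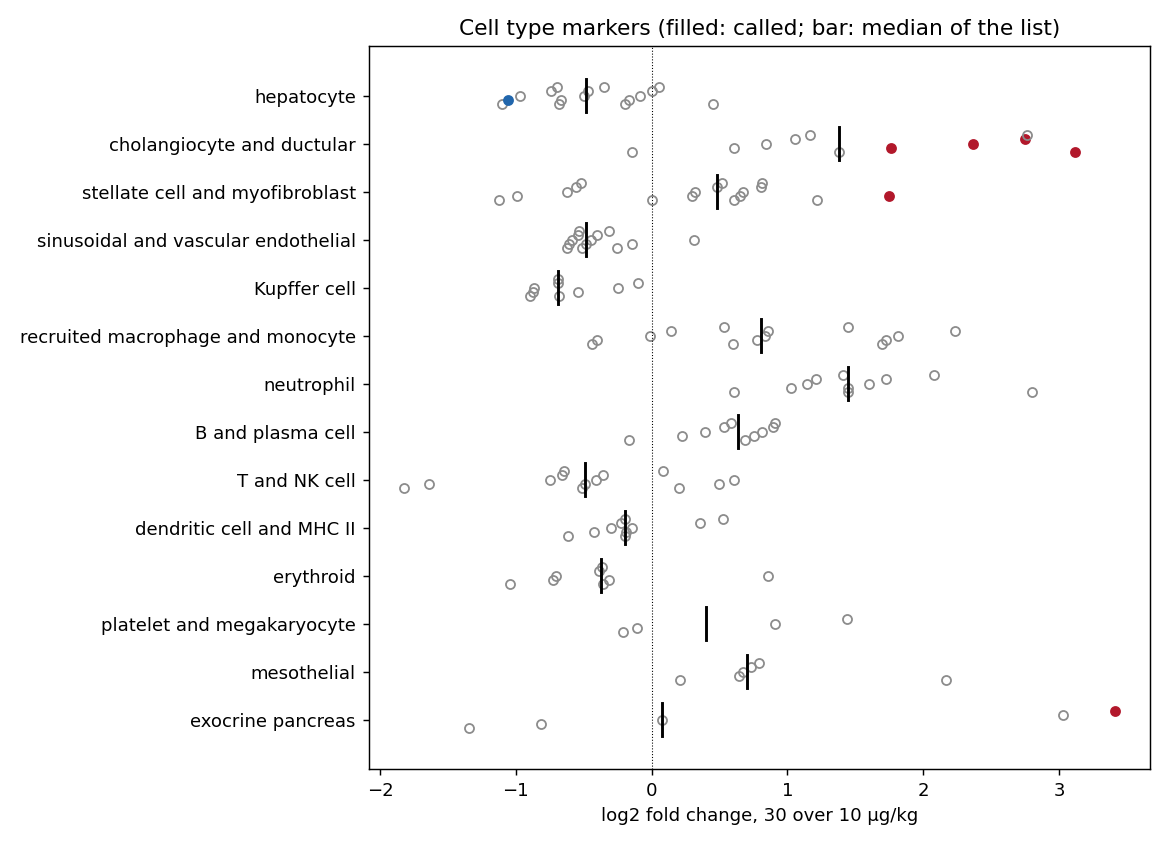
Log2 fold change (30 over 10 µg/kg) of each marker tested, by cell type, with called genes filled and the median of each list as a bar. The cholangiocyte and ductular list has 4 filled points, all higher, and the medians of hepatocyte, endothelial and Kupffer cell markers lie below 0.

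Traces of other tissues were small. Ctrb1, a pancreatic protease precursor, had 1.13, 0.461 and 2.02 CPM at 30 µg/kg, against 0.1, 0 and 0.211 CPM at 10 µg/kg (3.41, SE 0.72, adjusted p = 0.017). The pancreatic genes Cela3b, Prss2 and Cel had no count in any of the 6 libraries, and the summed exocrine list was 19.9 to 58.7 CPM at 30 µg/kg, against 31.9 to 87.8 CPM at 10 µg/kg. Col9a2, a cartilage collagen chain, had 468, 429 and 333 CPM at 30 µg/kg, against 125, 211 and 242 CPM at 10 µg/kg (1.09, SE 0.25, adjusted p = 0.0176), while Col2a1, Col9a1 and Acan, which define cartilage, had no count.

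The step from 10 to 30 µg/kg and the one before it, from 3 to 10 µg/kg, are about equal in ratio, and the change over the first was tested against the change over the second. The steps share the 10 µg/kg livers. The difference of the steps was called for 11 genes (0.0727% of those tested), 10 of them (0.0661%) with a lower change over the top step and 1 (0.00661%), St6galnac6, with a higher one. Ecel1 is one of the 10: its mean was 0.0694 ± 0.0269 CPM at 3, 9.85 ± 2.6 CPM at 10 and 43.2 ± 5.95 CPM at 30 µg/kg (SD, n = 3 each). Its change over the top step, 2.14 on the log2 scale, was lower than the 7.20 over the step before (difference -5.06, SE 0.66, adjusted p = 0.00406). Each 3 µg/kg liver had 1 count of Ecel1, so the size of the 7.20 and of the difference is uncertain. Col9a2 rose by 1.09 over the top step and by 3.79 over the one before (difference -2.70, SE 0.42, adjusted p = 0.00406). For the serine protease St14 the values were 0.94 and 4.84, for the F-box protein Fbxl16 -0.25 and 3.62, and for the myogenic inhibitor Mdfi 0.41 and 3.54. The sialyltransferase St6galnac6 had 11.3, 8.73 and 10.9 CPM at 3 µg/kg. At 10 µg/kg it had 3.21, 2.83 and 2.95 CPM, and at 30 µg/kg 3.78, 2.8 and 2.6 CPM. Its values at the top 2 doses overlapped, and the change of 0.03 differed from the -1.78 over the step before (1.81, SE 0.33, adjusted p = 0.0136). Without the third 10 µg/kg liver 3 genes were called in this test, and without the second 30 µg/kg liver 28.

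Across the 9 groups, the genes of the top step differed in where their levels departed from those of vehicle livers. Cyp1a1 averaged 3.12 CPM in vehicle livers and was already at 1230 ± 102 CPM at 0.1 µg/kg. Srxn1 stayed between 52.3 and 68.6 CPM on average from vehicle to 3 µg/kg and stood at 121 ± 31.7 CPM at 10 and 556 ± 328 CPM at 30 µg/kg. Krt19 averaged 0.578 to 1.37 CPM in all groups up to 10 µg/kg, and at 30 µg/kg 11.9 ± 7.0 CPM. Fads1 averaged 582 to 735 CPM from vehicle to 0.3 µg/kg, 471 CPM at 1 µg/kg, 465 CPM at 3 µg/kg, 230 CPM at 10 µg/kg, and at 30 µg/kg 86.9 ± 20.2 CPM. Against vehicle, Krt19 differed by 3.51 on the log2 scale at 30 µg/kg (adjusted p = 1.38e-06) and 0.39 at 10 µg/kg (adjusted p = 0.601), and Srxn1 of 3.35 and 1.14 (adjusted p = 1.94e-08 and 0.00698). These comparisons share livers with the one between the doses and are given for the levels alone.

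**Figure D5:**
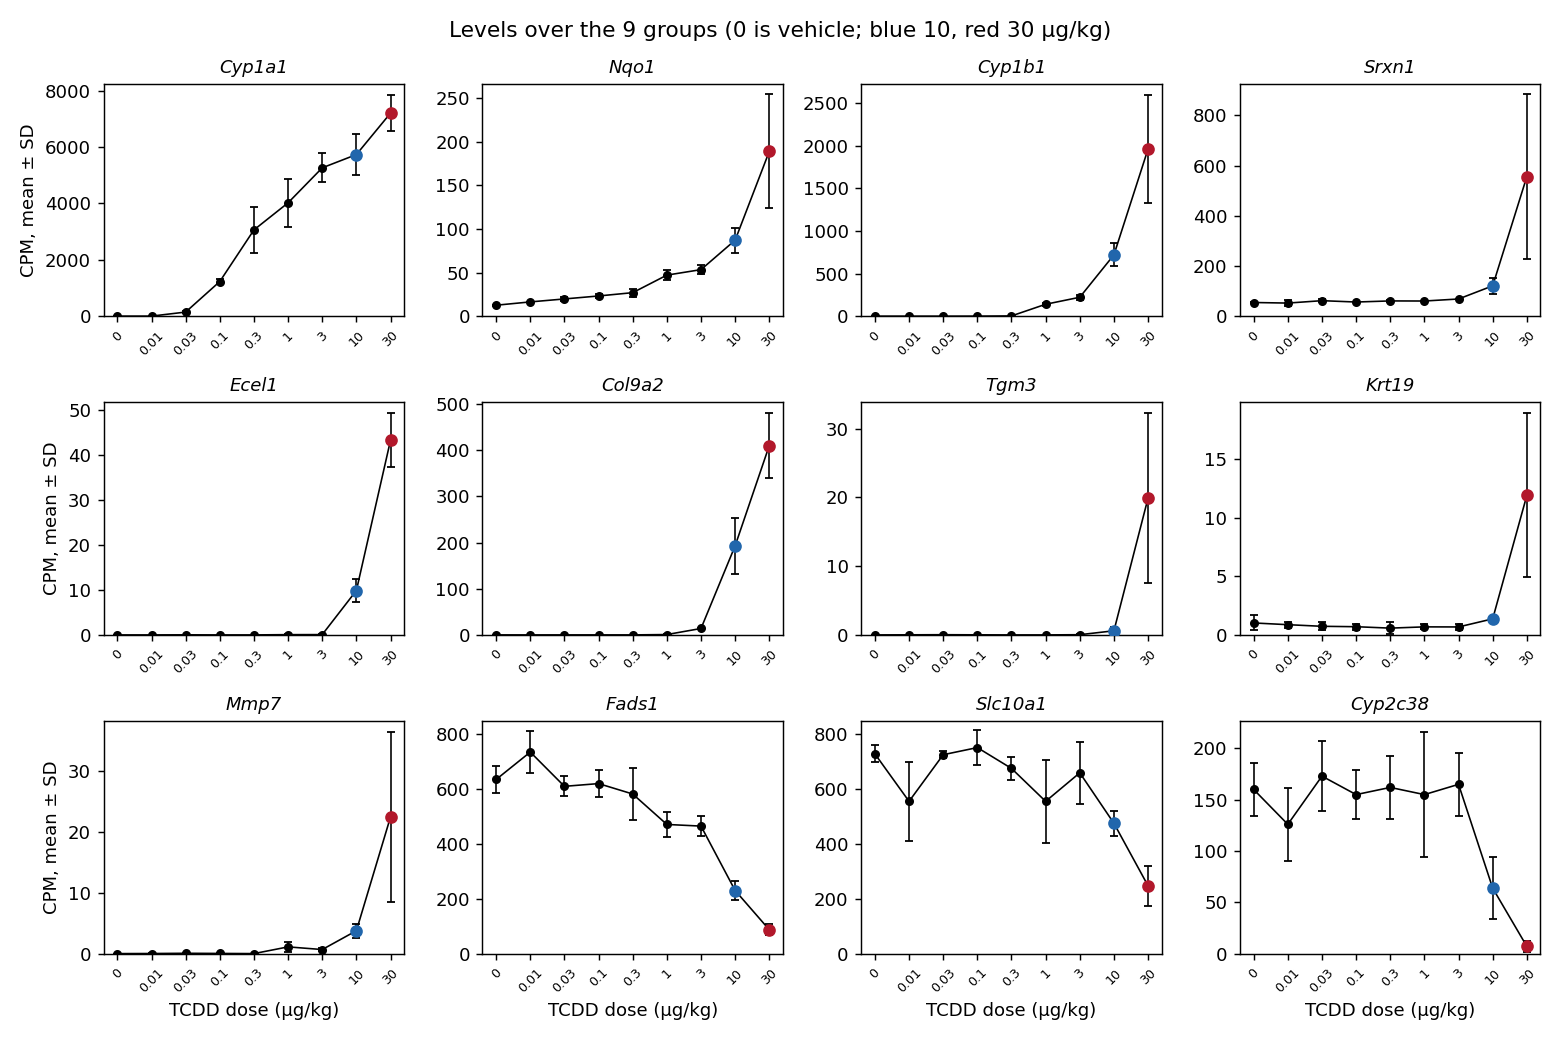
Mean level in CPM (linear axis from 0) with the SD of 3 livers in each of the 9 groups, for 12 genes, with dose in µg/kg on an evenly spaced axis, 10 µg/kg in blue and 30 µg/kg in red. Cyp1a1 climbs from 0.03 µg/kg on, while Tgm3, Krt19 and Mmp7 are near 0 until 10 µg/kg and Fads1, Slc10a1 and Cyp2c38 are lowest at 30 µg/kg.

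The comparison of 3 µg/kg with vehicle uses none of the 6 livers and called 1520 genes (10.1%; 5.17% higher and 4.89% lower). Of the 208 genes called higher at 30 than at 10 µg/kg, 28 were also higher at 3 µg/kg than in vehicle livers, which is 13.5% of the first list and 3.59% of the second, and 6 were lower. Of the 276 genes called lower, 27 were also lower at 3 µg/kg, which is 9.78% and 3.65%, and 30 were higher.

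Of the 6 reference genes tested, Hprt, an enzyme of purine salvage, rose, with 110, 76.3 and 95.9 CPM at 30 µg/kg, against 53.2, 68.2 and 67.5 CPM at 10 µg/kg (0.58, SE 0.15, adjusted p = 0.0344). Actb (0.15), Tbp (0.01), Ppia (0.25) and B2m (-0.53, SE 0.16, adjusted p = 0.0654) were not called. Gapdh had 2.85, 3.23 and 3.51 CPM at 30 µg/kg, against 2.97, 2.87 and 2.32 CPM at 10 µg/kg, with reads that aligned to several places not counted.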

How the data were processed

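RNA of 27 mouse livers was sequenced, and the 6 libraries of 30 and 10 µg/kg TCDD are compared here. The authors deposited raw counts of reads for each gene, as whole numbers. Per the submitters' processing notes, the authors used FastQC 0.11.2, cutadapt 1.4.1, TopHat 1.4.1 with GRCm38, SAMtools 0.1.19 and HTSeq 0.6.1; the strand setting is not given in the sources used here. The 5 summary lines of each library stayed out of library sizes and tests. In the 6 libraries, reads on no gene numbered 8.08% to 11.9% of all gene-assigned, unassigned and ambiguous reads. Alignments to several places were not counted, so genes with near-identical copies are undercounted.

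The test was that of edgeR 4.0.16 in R 4.3.3: filterByExpr with the groups (minimum count 10), TMM scaling, and a quasi-likelihood fit with robust dispersion over all 27 libraries and 9 groups. Benjamini-Hochberg adjustment ran over 15121 genes, and a gene was called at 0.05. Fold changes are 30 over 10 µg/kg. The standard error is the log2 fold change divided by the square root of F. "Not overlapping" refers to the 3 and 3 CPM values and held for 22% of all genes. No pair of libraries of a group agreed within sampling noise. The precision is set by 3 livers a group, and p-values rest on the spread between livers of a group. That spread was estimated over all 27 libraries and 9 groups, and not from the 30 and 10 µg/kg livers alone.

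The members and the 60 gene lists were chosen with earlier results of these data known. Named genes are the 15 largest rises and falls that were called, did not overlap and averaged 1 CPM or more, the 5 of each direction with the smallest p, all AhR battery members, up to 4 called and 2 uncalled members of each list, all markers, step-difference genes, reference genes, Ahr and Arnt. Predicted gene models and immune receptor segments were left out of the first 2 sets. Cbr1, Gclc, Cyp3a59, 5830411N06Rik and the Srxn1 and Nqo1 promoters were chosen after their values were seen. So were the genes of the dose plot and the 2 lists of the closing part. Some items are not reported here. Alternatives were RLE and upper-quartile factors, DESeq2 1.42.0, other filters and thresholds, non-robust dispersion, a replicate block, fits of other sets of libraries, and leaving out each of the 6 livers. The test was also tried on simulated counts.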

Additional observations from a re-analysis of the deposited data

How the results depend on the processing

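Against 484 genes called (208 higher, 276 lower), the count was 454 to 681 with RLE or upper-quartile factors, DESeq2, other low-count filters, non-robust dispersion, a block for the replicate number, or without the shallowest library or the 1 µg/kg group. It was 110 (67 higher, 43 lower) at an adjusted p below 0.01, and 278 (128 lower) with at least 2-fold change. With the other 21 libraries left out it was 2, with 2 higher and 0 lower. Leaving out single livers gave 46 to 1741 genes, 30 to 685 higher and 15 to 1056 lower. The cause of these differences was not tested. The step difference was called for 11 genes, for 17 with DESeq2 (4 higher), for 18 without the 1 µg/kg group (2 higher, 16 lower), and for 3 to 28 (0 to 4 higher, 3 to 24 lower) without single livers. Same-numbered livers of the 2 doses had correlated deviations of -0.224, 0.315 and 0.273, against -0.448 to 0.281 for livers with different numbers. With 3 livers a dose, these values cannot decide whether the numbers pair the livers. With the replicate number as a block 553 genes were called (223 higher, 330 lower), or 652 in the 6 libraries alone, and 454 of the 484 were among the 553. DESeq2 shared 464 of the 484 calls.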

Other observations

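Outside the lists described above, 2 groups of genes stood out among the calls. They were chosen after their values were seen, so their counts are a description with no test, beside 1.38% of all genes called higher and 1.83% called lower.

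Interferon-inducible and antigen processing genes were lower at 30 µg/kg. Of 45 measured members, 13 fell and 0 rose, all 45 had a log2 fold change below 0, and the median was -0.57. Irgm2, an immunity-related GTPase, had 47.6, 58.5 and 54 CPM at 30 µg/kg, against 83.5, 103 and 137 CPM at 10 µg/kg (-1.01, SE 0.20, adjusted p = 0.00655 by edgeR). Tap1, the peptide transporter of antigen presentation, had 21.4, 27.9 and 17.6 CPM at 30 µg/kg, against 46.8, 41 and 46.7 CPM at 10 µg/kg (-1.01, SE 0.21, adjusted p = 0.00801). The second 30 µg/kg liver lay with the other two in both genes, and the groups were apart. Cxcl9, a chemokine induced by interferon-gamma, had 8.39, 10.7 and 5.58 CPM at 30 µg/kg, against 28.4, 23.9 and 30.4 CPM at 10 µg/kg (-1.74, SE 0.41, adjusted p = 0.0237). T and NK cells make interferon-gamma. Of their 13 markers 0 were called, 4 had a log2 fold change above 0 and 9 below, and the median was -0.49. Gzma and Gzmb, among the 9, had log2 fold changes of -1.82 and -1.64 (adjusted p = 0.0807 and 0.0723 by edgeR). The summed T and NK cell list was 9.91 to 11.8 CPM at 30 µg/kg, against 10.3 to 15.2 CPM at 10 µg/kg. The part of these cells in the falls of the interferon-inducible genes was not tested. Without the first 30 µg/kg liver 0 members were called, and without the second 22.

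Mucosal epithelial genes beside Dmbt1 and Lypd8 appeared at low levels. Of 27 listed, 12 passed the low-count filter, and 10 of these were called higher; a gene silent elsewhere passes it only through the group where it is present, so that share carries no weight. Vil1, the microvillus protein villin, had 2.22, 0.345 and 2.44 CPM at 30 µg/kg, against 0.1, 0.0927 and 0.337 CPM at 10 µg/kg (3.20, SE 0.65, adjusted p = 0.00756). The trefoil factor Tff2 had 0.629, 0.691 and 0.478 CPM at 30 µg/kg, against 0.0668, 0.0927 and 0.0843 CPM at 10 µg/kg. Reg3b, an antibacterial lectin of the gut, had 0.965, 0.499 and 4.04 CPM at 30 µg/kg, against 0, 0.0927 and 0.253 CPM at 10 µg/kg. All 3 genes were higher in each 30 µg/kg liver than in any 10 µg/kg liver. For Vil1 this rests on 0.345 CPM in the second 30 µg/kg liver against 0.337 CPM in the third 10 µg/kg liver. Vil1 was called in 2 of the 6 fits that leave out a liver. Leaving out single livers gave 3 to 13 calls in this list.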
